A study of Mus musculus with 6 samples.

Results

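The genes described here are 9 regulators of skeletal muscle: the stem cell and progenitor factors Pax7, Myf5 and Myod1, the differentiation factor Myog, the factors Myf6, Mef2a and Mef2d that act in maturing and mature fibres, and the growth regulators Mstn and Tmem182. They were taken by symbol, and all 9 were found among the 24346 genes of the deposited tables. RNA had been sequenced from the condylar cartilage of the mouse lower jaw, dissected under a microscope, in 3 libraries of the mutant genotype and 3 of the control genotype, fl/fl. In the mutants Ihh, the gene of the Indian hedgehog ligand, was deleted in craniofacial neural crest cells, per the series title. By convention fl/fl denotes homozygous floxed mice, in which Cre can remove the marked DNA, and the submitters checked mutant condyles for Ihh, Cre and Tomato expression. No source used here names the Cre driver, strain, age or sex of the mice, or says whether each library is 1 animal. The p-values therefore measure the spread between these libraries, which may be partly technical.

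Skeletal muscle is built in steps that these genes mark. PAX7 marks muscle stem cells (satellite cells), MYF5 and MYOD commit cells to the muscle lineage, myogenin (Myog) drives their differentiation, and MYF6, also called MRF4, is the member of this MyoD family that prevails in mature fibres. MEF2 proteins work together with the MyoD family and are also made in many other cell types, and myostatin (Mstn) is a secreted brake on muscle growth. In the head, muscle fibres arise from cranial mesoderm, whereas the condyle and the connective tissue around the muscles arise from neural crest. Jaw muscle inserts next to the condyle, so a dissected condyle can carry muscle tissue along.

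Ihh itself measured 2.18, 2.33 and 2.66 FPKM in mutants 1, 2 and 3, against 3.73, 2.51 and 3.74 FPKM in fl/fl 1, 2 and 3, with overlapping groups (limma adjusted p = 0.724), so its level in whole cartilage did not separate the genotypes. Values are FPKM, fragments scaled to transcript length and library depth, and a log2 fold change is on the scale of log2(FPKM + 1), mutant over fl/fl. Of 12 chondrocyte markers 10 were measured, and all 10 were detected, with summed levels of 143.5 to 197 FPKM in mutants and 335 to 460 FPKM in fl/fl. The 30 genes of mature fibres summed to 21854 to 40128 FPKM in mutants and 5454 to 13331 FPKM in fl/fl, so the labelled cartilage held much muscle RNA in every library and more in every mutant. In bulk tissue, more muscle cells and more RNA per cell cannot be told apart. The summed level of 12 endothelial markers was 296 to 338 FPKM in mutants and 109 to 171 FPKM in fl/fl, and their part in the results was not tested. Xist, which is made from the inactive X chromosome of females, measured 0.577 to 0.984 FPKM in mutants, and 29.5, 29.2 and 0.608 FPKM in fl/fl 1, 2 and 3, while the Y-linked Eif2s3y measured 38.4 to 47.4 FPKM in mutants, and 0.89, 0 and 42.1 FPKM in fl/fl 1, 2 and 3. Sex was thus unequal between the groups. Of 1120 olfactory receptor genes, which are mostly silent outside the nose, 39.2% to 42.8% reached 1 FPKM, and their 90th percentile lay between 6.49 and 8.69 FPKM. Ihh lay below that percentile in every library, so its level was not clearly above that of silent genes. Its values therefore do not show whether the deletion changed its RNA.

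The genes lie apart from each other except for Myf5 and Myf6, which sit 6718 bases apart on the minus strand of chromosome 10 (mm10, GENCODE M21), Myf5 from 107482908 to 107486134 and Myf6 from 107492853 to 107494737. Tmem182 (40805601 to 40856887), Mstn (53061640 to 53068079) and Myog (134289989 to 134292548) lie on the plus strand of chromosome 1. Myod1 lies on chromosome 7 from 46376474 to 46379099 on the plus strand, Mef2a farther along that chromosome, 67231163 to 67372858, minus strand, Mef2d on chromosome 3 from 88142372 to 88172086 on the plus strand and Pax7 on chromosome 4, 139737062 to 139833528, minus strand. Exons of Mef2a overlap the opposite-strand gene Lysmd4 over 302 bases, and exons of Mef2d overlap 1700113A16Rik over 531 bases. Libraries of the kind used here do not keep the strand, so reads from these stretches cannot be assigned to one partner.

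The sequences before the start of 3 of the genes are shown because they hold the letters that the MyoD family and MEF2 proteins are known to read. RefSeq promoters (GRCm38.p6) were matched for 7 of the 9 genes, all but Myod1 and Myf6, and the 250 bases before the start were searched. The motifs were CANNTG (the E-box of the MyoD family, read the same on both strands), its form CAGCTG, which is counted within the first, and TANNNNTA with A or T at each N (the core read by MEF2, likewise the same on both strands). Capitals mark matches.
Tmem182, chr1:40805351-40805600, plus strand: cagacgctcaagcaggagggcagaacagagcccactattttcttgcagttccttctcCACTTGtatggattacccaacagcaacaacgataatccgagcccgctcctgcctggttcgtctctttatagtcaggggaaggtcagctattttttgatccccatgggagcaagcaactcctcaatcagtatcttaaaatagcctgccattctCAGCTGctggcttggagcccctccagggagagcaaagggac
Myog, chr1:134289754-134290003, plus strand: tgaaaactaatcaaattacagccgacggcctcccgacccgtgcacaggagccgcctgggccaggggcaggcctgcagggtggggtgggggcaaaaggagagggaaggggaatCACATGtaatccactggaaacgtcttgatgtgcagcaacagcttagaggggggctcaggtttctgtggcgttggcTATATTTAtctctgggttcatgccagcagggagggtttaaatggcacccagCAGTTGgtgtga
Mstn, chr1:53061390-53061639, plus strand: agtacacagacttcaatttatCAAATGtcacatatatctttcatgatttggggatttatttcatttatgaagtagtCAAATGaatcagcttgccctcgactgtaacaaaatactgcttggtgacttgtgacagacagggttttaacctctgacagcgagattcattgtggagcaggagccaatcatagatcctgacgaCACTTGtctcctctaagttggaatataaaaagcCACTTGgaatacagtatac
Tmem182 held 2 matches to CANNTG, the one nearer the start being CAGCTG, whose first base lies 41 bases before the start. Myog held 2 matches to CANNTG and 1 match to the MEF2 core, which begins 63 bases before the start. Mstn held 4 matches to CANNTG, and Pax7, Myf5, Mef2a and Mef2d held none of the motifs in this window. These starts are those of RefSeq, which differ from GENCODE for Myog and Pax7. The Myog window runs past the GENCODE start at 134289989, so its last match, CAGTTG, lies inside the GENCODE gene. The Pax7 window, 139832969 to 139833218, lies wholly inside the GENCODE gene. Over all 32851 promoters of the table, 66.2% held CANNTG, 4271 promoters held CAGCTG and 8.56% held the MEF2 core.

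The comparison of mutant with fl/fl cartilage asks whether transcripts of these regulators differ where Ihh is deleted in the neural crest. Tmem182 and Myf6 rose in mutants, 2 of the 8 members that could be tested, and none fell. Tmem182 averaged 39.1 ± 9.43 FPKM in mutants and 4.26 ± 2.08 FPKM in fl/fl (mean ± SD, n = 3 each), and Myf6 averaged 50.7 ± 16.1 FPKM in mutants and 16.3 ± 2.01 FPKM in fl/fl. Over all 18715 genes tested, 0.775% were called higher and 0.465% lower (limma, Benjamini-Hochberg adjusted p below 0.05). The log2 fold changes of the 8 tested members were all above 0, between 0.25 and 2.98 with a median of 0.89, against a median of 0.0008 over all genes tested. In 5 of the 8 the mutant values all lay above the fl/fl values, which was so for 9.77% of all genes tested, and in none did they all lie below, which was so for 9.4%. At an unadjusted p below 0.05 (limma) were 5 of the 8, all higher, against 14.1% of all genes tested, 7.94% higher and 6.11% lower. Pax7 did not reach 1 FPKM in 3 libraries and was not tested.

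**Figure D1:**
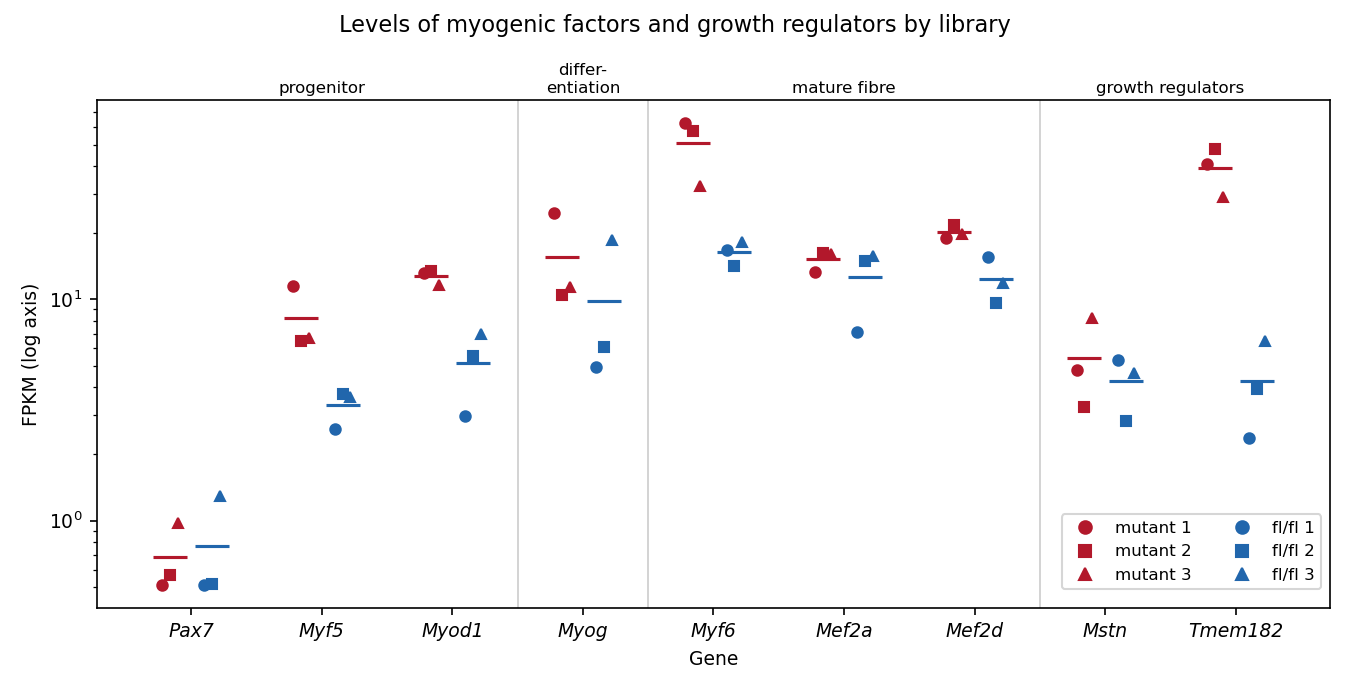
FPKM (log axis) of the 9 genes in each library, mutants in red and fl/fl in blue; symbols mark replicate numbers and bars the group means. Tmem182, Myf6, Myod1, Myf5 and Mef2d show no overlap between the groups, while Pax7, Myog, Mef2a and Mstn overlap.

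Pax7, the factor of muscle stem cells, was the lowest member in both groups. It measured 0.514, 0.57 and 0.973 FPKM in mutants 1, 2 and 3, against 0.513, 0.517 and 1.285 FPKM in fl/fl 1, 2 and 3. The groups overlapped, and between 41.4% and 59.6% of the olfactory receptor genes lay below Pax7, depending on the library. Whole fragments were recovered from the spacing of low values, as the smallest numbers that fit all 6 libraries within 0.1 of a fragment: 3, 4 and 6 in mutants and 3, 3 and 10 in fl/fl. The ratio after scaling for depth was 0.83, with an exact 95% interval from 0.367 to 1.84 that covers counting error only. Ratios within that interval are compatible with these fragment numbers, so neither a lower nor a higher level was shown. The related factor Pax3, which acts in embryonic progenitors, measured 0.381 to 2.34 FPKM in mutants and 0.495 to 1.91 FPKM in fl/fl and was not tested either.

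Myf5, which with Myod1 commits cells to muscle, measured 11.5, 6.49 and 6.69 FPKM in mutants 1, 2 and 3, against 2.60, 3.74 and 3.62 FPKM in fl/fl 1, 2 and 3. All mutants lay above all fl/fl libraries, with mutant 1 the highest. The log2 fold change was 1.06 ± 0.30 (SE) and did not pass over all genes (limma adjusted p = 0.136). The recovered fragments were 71 in mutants and 30 in fl/fl, and the scaled ratio of 2.42 had a counting interval from 1.56 to 3.84. Between 69.1% and 81.5% of the olfactory receptor genes lay below Myf5 in fl/fl.

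Myod1 measured 13.1, 13.4 and 11.6 FPKM in mutants 1, 2 and 3, against 2.96, 5.53 and 6.99 FPKM in fl/fl 1, 2 and 3. The mutants were close to each other and all above fl/fl, among which fl/fl 1 was the lowest. Its log2 fold change of 1.21 ± 0.29 did not pass (limma adjusted p = 0.0893, and 0.053 to 0.861 under other settings). The fragments numbered 98 in mutants and 42 in fl/fl, with a scaled ratio of 2.38 and a counting interval from 1.65 to 3.51. Against fl/fl 3, the library without Xist, alone, the log2 fold change was 0.78 (limma adjusted p = 0.551).

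Myog, the switch to differentiation, measured 24.7, 10.5 and 11.4 FPKM in mutants 1, 2 and 3, against 4.92, 6.06 and 18.5 FPKM in fl/fl 1, 2 and 3. The groups overlapped, since fl/fl 3 lay above mutants 2 and 3. The log2 fold change of 0.72 ± 0.48 did not pass (limma adjusted p = 0.599). Its direction depended on the libraries: it was -0.34 when fl/fl 1 and 2 were left out and -0.24 with the Xist level as a covariate. The fragments were 90 in mutants and 65 in fl/fl, of which fl/fl 3 gave 45. Their scaled ratio of 1.41 had a counting interval from 1.02 to 1.98, which leaves out this spread between libraries.

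Myf6, the MyoD-family factor of mature fibres, measured 62.3, 57.4 and 32.4 FPKM in mutants 1, 2 and 3, against 16.7, 14.1 and 18.1 FPKM in fl/fl 1, 2 and 3. Even mutant 3, the lowest mutant, lay above every fl/fl library, and at least 95.9% of the olfactory receptor genes lay below Myf6 in every library. The log2 fold change was 1.53 ± 0.27 (limma adjusted p = 0.037), a 3.11-fold ratio of the means. The fragments numbered 247 in mutants and 82 in fl/fl, with a scaled ratio of 3.08 and a counting interval from 2.39 to 4.001. The call was lost without mutant 1, mutant 2, fl/fl 1, fl/fl 2 or fl/fl 3 (limma adjusted p of 0.136, 0.113, 0.114, 0.115 and 0.059) and kept without mutant 3, with log2 fold changes from 1.36 to 1.82. Against fl/fl 3 alone the log2 fold change was 1.38 (limma adjusted p = 0.427).

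Mef2a, a MEF2 factor made in muscle and many other tissues, measured 13.3, 16.2 and 15.97 FPKM in mutants 1, 2 and 3, against 7.08, 14.9 and 15.8 FPKM in fl/fl 1, 2 and 3. Only fl/fl 1 stood below the rest. Its log2 fold change of 0.32 ± 0.30 did not pass (limma adjusted p = 0.739) and was -0.02 without fl/fl 1. Its fragments fitted whole numbers less closely than those of the other members, with a deviation of 0.0499 against at most 0.0043, and GENCODE gives it 12 transcripts.

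Mef2d, a second broadly made MEF2 factor, measured 18.9, 21.6 and 19.6 FPKM in mutants 1, 2 and 3, against 15.5, 9.64 and 11.8 FPKM in fl/fl 1, 2 and 3. Every mutant lay above every fl/fl library. A log2 fold change of 0.68 ± 0.22 did not pass (limma adjusted p = 0.196). With 212 fragments in mutants and 132 in fl/fl, the scaled ratio was 1.64, with a counting interval from 1.31 to 2.06. Mef2c, the most abundant relative, measured 44.1 to 54.5 FPKM in mutants and 32.2 to 42.7 FPKM in fl/fl (limma adjusted p = 0.503), and Mef2b, at 0.612 to 1.77 FPKM in mutants and 0 to 0.625 FPKM in fl/fl, was not tested.

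Mstn measured 4.79, 3.28 and 8.27 FPKM in mutants 1, 2 and 3, against 5.34, 2.83 and 4.65 FPKM in fl/fl 1, 2 and 3. The groups overlapped and mutant 3 stood highest. Of the olfactory receptor genes, 72.5% to 89.9% lay below Mstn, so its level was not clearly above that of silent genes. Its log2 fold change of 0.25 ± 0.36 did not pass (limma adjusted p = 0.84), and without mutant 3 it was -0.05. The fragments were 62 in mutants and 51 in fl/fl, and the scaled ratio of 1.24 had a counting interval from 0.844 to 1.84, which left room for a lower as well as a higher level.

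Tmem182, a membrane protein made in muscle and reported to restrain muscle growth and regeneration in mice, had the largest log2 fold change of the 8 tested. It measured 40.8, 47.6 and 29.0 FPKM in mutants 1, 2 and 3, against 2.35, 3.94 and 6.47 FPKM in fl/fl 1, 2 and 3. The lowest mutant lay well above the highest fl/fl library, and the ratio of the means was 9.20. Of the olfactory receptor genes, 99.6% to 99.8% lay below Tmem182 in mutants, against 68.1%, 79.6% and 89.7% in fl/fl 1, 2 and 3, so the fl/fl level was not clearly above that of silent genes and the size of the ratio is uncertain. The log2 fold change was 2.98 ± 0.32 (limma adjusted p = 0.0111). As the smallest numbers that fit, the fragments were 52, 73 and 39 in mutants and 3, 5 and 11 in fl/fl. The scaled ratio was 8.82, with a counting interval from 5.47 to 15.0. The call was lost without mutant 1 (limma adjusted p = 0.0586) and held without any other single library, with log2 fold changes from 2.69 to 3.27. Against fl/fl 3 alone the log2 fold change was 2.40 (limma adjusted p = 0.18), and with the Xist level as a covariate it was 2.42 (limma adjusted p = 0.124).

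**Figure D2:**
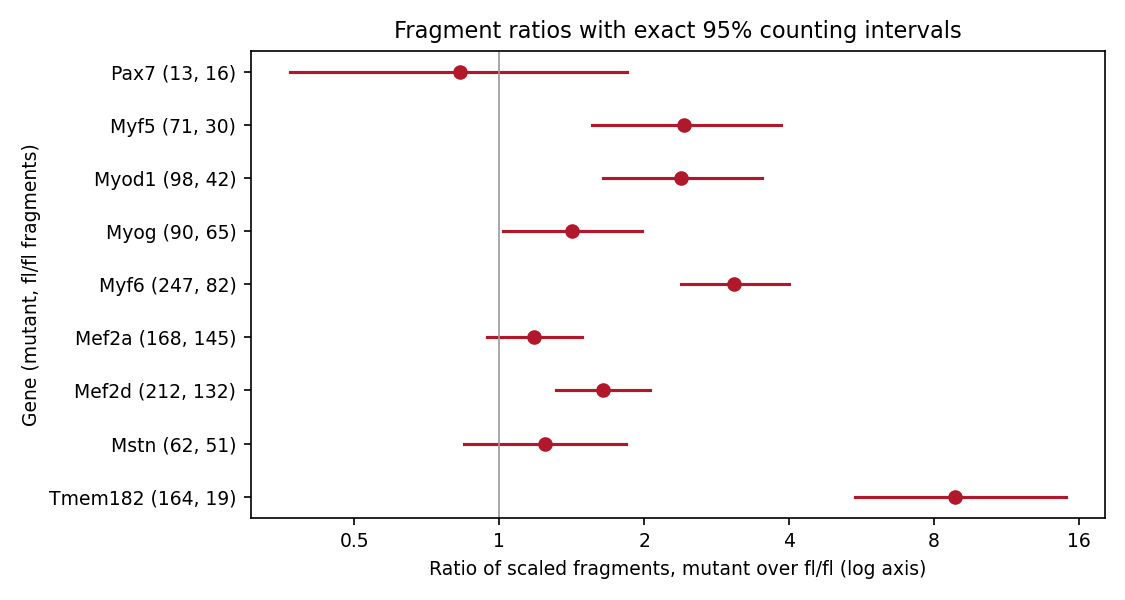
Ratio of depth-scaled fragments, mutant over fl/fl (log axis), for the 9 genes, with fragment numbers in mutants and fl/fl beside each name; lines are exact 95% intervals for counting error only. The intervals of Myf5, Myod1, Myog, Myf6, Mef2d and Tmem182 lie above 1, and those of Pax7, Mef2a and Mstn include 1. Fragments are pooled over the libraries of a group, so the intervals leave out the spread between libraries. For Myog the groups overlap in FPKM.

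These numbers show how little sequence lies behind the members. With the annotated exon lengths of Myf5, Myod1, Myog and Myf6, each of which has 1 annotated transcript, the value of 1 fragment corresponds to 1180000 to 1290000 fragments in fl/fl 1 and 1580000 to 1720000 in fl/fl 3, the deepest library. Tmem182, with an exon length of 2716 bases, gives 470000 in fl/fl 1, well below the range of those genes. Its fragment numbers and its interval are therefore less certain than theirs. No source used here gives the transcript lengths that the authors used, and multiples of the fragment numbers would fit the values as well, which would narrow the intervals. Reads without molecular identifiers are not independent molecules, so these intervals leave out amplification and the spread between mice.

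Ordered by mean level, mutants had Myf6 and Tmem182 at the top, followed by Mef2d, Myog, Mef2a, Myod1, Myf5, Mstn and Pax7. In fl/fl the order was Myf6, Mef2a, Mef2d, Myog, Myod1, Mstn, Tmem182, Myf5 and Pax7. Among neighbours in the mutant order, Tmem182 and Mef2d, Myod1 and Myf5, and Mstn and Pax7 did not overlap in their ranges, and all other neighbours did. Among neighbours in fl/fl, ranges were separate for Myf5 and Pax7 alone. By group means, Myf6 was the most abundant MyoD-family transcript in both groups, on a scale that corrects for length, although Myog was slightly above it in fl/fl 3, and Tmem182 stood in place 2 of 9 in mutants and 7 of 9 in fl/fl.

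Progenitor factors and factors of mature fibres did not separate by the size of their change. The tested progenitor factors had log2 fold changes of 1.06 (Myf5) and 1.21 (Myod1), Myog had 0.72, and the factors of mature fibres had 0.32 (Mef2a), 0.68 (Mef2d) and 1.53 (Myf6). Within libraries, the ratio of Myf6 to Myf5 was 5.41, 8.84 and 4.84 in mutants 1, 2 and 3, against 6.44, 3.79 and 4.99 in fl/fl 1, 2 and 3. The ratio of Myf6 to Myod1 was 4.75, 4.29 and 2.78 in mutants, against 5.65, 2.56 and 2.59 in fl/fl. Both ratios overlapped between the groups, whereas the ratio of Tmem182 to Myod1 did not, at 3.11, 3.56 and 2.49 in mutants and 0.794, 0.713 and 0.927 in fl/fl. In fl/fl 1, 2 and 3, 68.1%, 79.6% and 89.7% of the olfactory receptor genes lay below Tmem182. Below Myod1 lay 74.5%, 83.7% and 90.8% of them. Both genes were thus near the level of silent genes in fl/fl, and the size of their ratio there is uncertain.

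The members were also set against the mature fibre genes of the same library. The mean of the 30 fibre genes was 7.76, 7.94 and 7.11 log2 units in mutants 1, 2 and 3, against 6.16, 5.42 and 6.42 in fl/fl 1, 2 and 3, a difference of 1.60. Myf6 lay 1.97 ± 0.17 log2 units below that mean in mutants and 1.90 ± 0.35 below it in fl/fl (mean ± SD, n = 3 each), with overlapping groups. Tmem182 lay 2.31 ± 0.09 units below it in mutants and 3.69 ± 0.67 below it in fl/fl. Relative to that mean, Tmem182 was thus higher in each mutant than in any fl/fl library. The log2 fold changes of the 30 fibre genes ran from -1.11 to 2.94, against 2.98 for Tmem182. A rise of about this size was therefore also found within the fibre list, and is not particular to Tmem182. Mef2d lay 3.21 ± 0.40 units below the fibre mean in mutants and 2.29 ± 0.39 in fl/fl. The groups did not overlap but nearly met, at -2.745 in mutant 3 and -2.74 in fl/fl 3. The log2 fold change of Mef2d, 0.68, was below the 1.60 of the fibre mean, which by itself places it lower in mutants on this scale. On this scale a gene at 1 level in all libraries comes out lower in mutants by the whole difference of the fibre mean, so for Pax7, which is near the floor, the scale carries no information. For Myf5, Myod1, Myog, Mef2a and Mstn the groups overlapped on this scale.

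**Figure D3:**
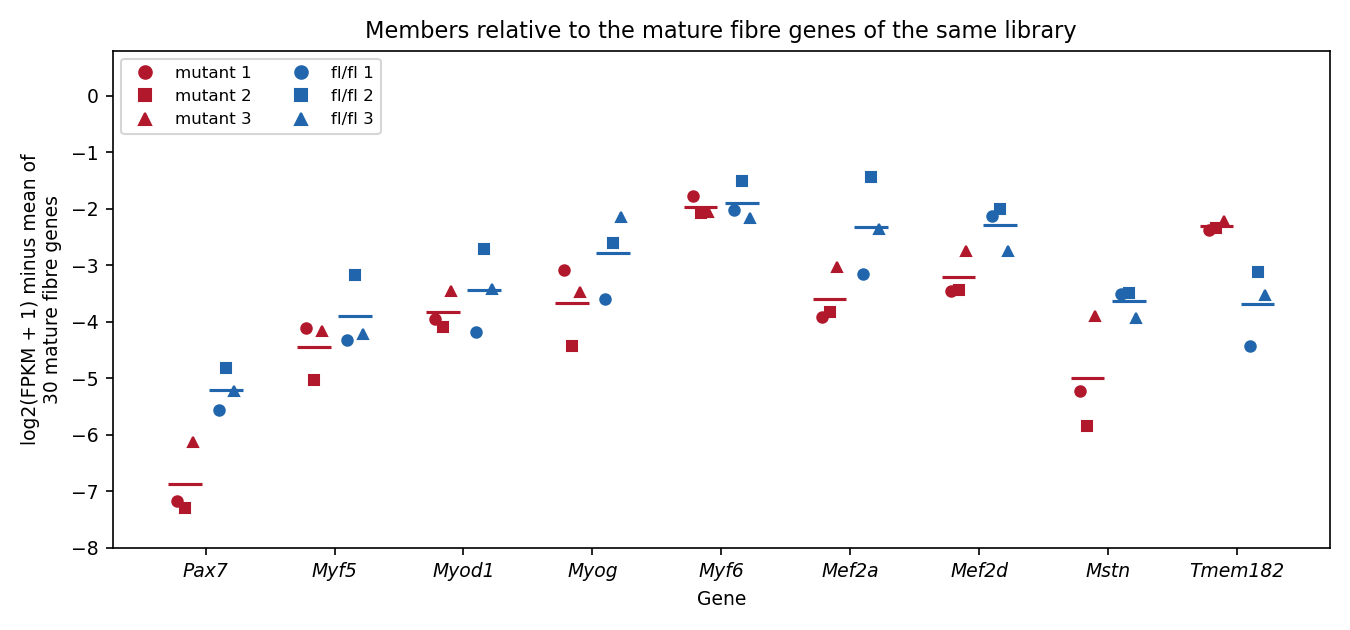
Each gene's log2(FPKM + 1) minus the mean of 30 mature fibre genes in the same library, mutants in red and fl/fl in blue; bars are group means. Myf6 lies at about the same distance in both groups, and Tmem182 lies nearer the fibre mean in mutants. Mef2d lies farther from that mean in mutants on average, with mutant 3 and fl/fl 3 nearly level. The position of Pax7, near the floor, follows the fibre mean.

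With the mean of the fibre genes as a covariate, the log2 fold change of Tmem182 was 2.16 ± 0.70 (limma adjusted p = 0.73), that of Myf6 0.50 ± 0.48 (limma adjusted p = 0.901) and that of Myog -0.50 ± 1.04 (limma adjusted p = 0.961). The fibre mean differed between the groups without overlap, so the covariate and the genotype cannot be told apart well with 6 libraries.

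Among genes with a mean of at least 5 FPKM, those whose profile over the 6 libraries lay closest to Tmem182 were Rpl3l, Bves and Crat, with root mean square differences of 0.33, 0.39 and 0.40 log2 units. Closest to Myf6 were Slc25a20 (0.05), Got2 (0.10) and Coq10a (0.11), in the same unit. For Myod1 the closest were Nme6 (0.14), Aplnr (0.14) and Hspb2 (0.15), and for Myf5 they were Adamtsl5 (0.11), Smtnl2 (0.13) and Tm6sf1 (0.14). The closest to Mef2d was Clec4a3 (0.07), to Mef2a Uxt (0.09), to Mstn Olfm1 (0.10) and to Myog Cbr4 (0.24). With 10234 to 10235 candidate genes and 6 libraries, close profiles of this kind are a description.

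Mature fibre genes rose in 14 of 30 tested (0.775% of all genes were called higher) and fell in none (0.465% lower). Among them were the fast myosin Myh1 (314 ± 145 FPKM in mutants and 43.8 ± 11.9 FPKM in fl/fl), the intermediate filament gene Des, the glycogen phosphorylase Pygm (148 ± 41.5 FPKM in mutants and 33.7 ± 8.19 FPKM in fl/fl) and the sarcomere gene Myoz1. The list's median log2 fold change was 1.69. The slow fibre genes Myh7 (1.14 ± 0.97 FPKM in mutants and 2.27 ± 0.42 FPKM in fl/fl) and Tnni1 (13.9 ± 5.02 FPKM in mutants and 32.3 ± 14.6 FPKM in fl/fl), named after their values were seen, had negative fold changes and did not pass (limma adjusted p of 0.525 and 0.232). Tnnt1, the slow troponin T, went the other way without passing, at 96.0, 47.4 and 52.2 FPKM in mutants, against 20.4, 9.41 and 41.4 FPKM in fl/fl (limma adjusted p = 0.162), so the slow genes did not share a direction. The count of 14 was 0 without mutant 1, fl/fl 1 or fl/fl 2, and 1 without mutant 2. It was 19 without mutant 3 and 15 without fl/fl 3. With the Xist level as a covariate, or with the replicate number as a block, it was 0.

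Isoforms of developing muscle gave no calls. Of 7 tested, none was called and none reached an unadjusted p below 0.05 (limma), with a median log2 fold change of -0.15. The neonatal myosin Myh8 measured 121 ± 32.5 FPKM in mutants and 75.8 ± 41.3 FPKM in fl/fl, the adhesion molecule Ncam1 16.3 ± 2.91 and 22.6 ± 4.11 FPKM, the embryonic acetylcholine receptor subunit Chrng 0.896 ± 0.65 and 1.76 ± 0.62 FPKM, and Tnnt2, the cardiac troponin T that developing skeletal muscle also makes, 7.44 ± 0.96 and 5.44 ± 1.64 FPKM, mutants before fl/fl in each pair. The difference in fold change between these isoforms and the mature fibre genes was not tested.

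The share of all genes at an unadjusted p below 0.05, 14.1%, and the share with a positive log2 fold change, 50.1%, are the background for the counts of the lists that follow. Genes of satellite cells gave 0 calls among 15 tested, with 1 at an unadjusted p below 0.05 (limma) and a median log2 fold change of 0.24. That one was the muscle cadherin Cdh15, at 10.1, 7.69 and 6.76 FPKM in mutants, against 2.64, 2.39 and 3.97 FPKM in fl/fl (limma adjusted p = 0.0838). The groups did not overlap for Cdh15. The receptor Fgfr4 measured 3.20 ± 1.36 FPKM in mutants and 1.35 ± 0.83 FPKM in fl/fl, the laminin receptor subunit Itga7 12.0 ± 1.69 FPKM in mutants and 9.02 ± 3.40 FPKM in fl/fl, and the growth factor receptor Met 5.05 ± 0.74 FPKM in mutants and 3.67 ± 0.94 FPKM in fl/fl, each with overlapping groups.

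Upstream and head muscle regulators gave 0 calls among 16 tested, with 2 at an unadjusted p below 0.05 (limma), a share near the 14.1% of all genes. Tbx1, a factor of cranial mesoderm and of the jaw muscle it forms, measured 15.9, 16.9 and 12.99 FPKM in mutants, against 0.441, 3.11 and 6.64 FPKM in fl/fl. Its groups were well apart, and its log2 fold change of 2.18 ± 0.52 did not pass (limma adjusted p = 0.0886). Msc, a repressor related to the MyoD family that acts in head muscle precursors, measured 9.62 ± 2.68 FPKM in mutants and 5.04 ± 2.83 FPKM in fl/fl, with overlapping groups.

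Partners and inhibitors of the MyoD family gave 0 calls among 15 tested, with 3 at an unadjusted p below 0.05 (limma; 14.1% of all genes) and a median log2 fold change of 0.10. The E-protein Tcf12, which pairs with MyoD-family factors on DNA, measured 14.5 ± 1.502 FPKM in mutants and 22.0 ± 4.18 FPKM in fl/fl. The inhibitors Id3 and Id1, which sequester E-proteins, measured 453 ± 143 and 75.1 ± 27.1 FPKM in mutants and 280 ± 58.2 and 48.6 ± 5.69 FPKM in fl/fl, and the Notch target Hes1 23.1 ± 2.45 FPKM in mutants and 16.1 ± 0.63 FPKM in fl/fl. Relatives and cofactors of MEF2 gave 0 calls among 16 tested and 5 at an unadjusted p below 0.05 (limma), all 5 higher in mutants (7.94% of all genes), with a median log2 fold change of 0.40. Examples were the muscle kinase Srpk3, a MEF2 target (25.3 ± 9.76 FPKM in mutants and 11.1 ± 3.78 FPKM in fl/fl, limma adjusted p = 0.14), the methyltransferase Smyd1 (12.2 ± 4.92 FPKM in mutants and 4.69 ± 1.81 FPKM in fl/fl), the cofactor Vgll2 (12.9 ± 4.94 FPKM in mutants and 5.12 ± 3.62 FPKM in fl/fl) and the deacetylase Hdac5, which represses MEF2 (13.9 ± 4.30 FPKM in mutants and 8.07 ± 1.29 FPKM in fl/fl).

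Of 20 tested genes of myoblast fusion 1 rose (0.775% of all genes) and none fell (0.465% of all genes). It was Cav3, the muscle caveolin, at 139, 96.4 and 64.7 FPKM in mutants, against 24.2, 21.4 and 26.4 FPKM in fl/fl (log2 fold change 1.95 ± 0.27, limma adjusted p = 0.0197). Cav3 was not called without mutant 1, mutant 2, fl/fl 1 or fl/fl 2. The adhesion gene Jam2 measured 17.3 ± 4.28 FPKM in mutants and 6.63 ± 3.89 FPKM in fl/fl (limma adjusted p = 0.111), the fusion gene Dock1 5.39 ± 0.62 FPKM in mutants and 8.08 ± 1.88 FPKM in fl/fl, and Itgb1 94.3 ± 1.45 FPKM in mutants and 110 ± 10.1 FPKM in fl/fl. Tmem8c, an older symbol of the fusogen myomaker, overlapped between the groups at 6.95, 4.05 and 12.0 FPKM in mutants, against 8.32, 3.49 and 12.5 FPKM in fl/fl, and was named after its values were seen.

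Genes of the neuromuscular junction gave 0 calls among 12 tested and 4 at an unadjusted p below 0.05 (limma; 14.1% of all genes), and all 12 log2 fold changes were above 0 (50.1% of all genes), with a median of 0.42. The acetylcholine receptor subunit Chrnb1 measured 20.4 ± 5.35 FPKM in mutants and 8.89 ± 2.70 FPKM in fl/fl, the basement membrane laminin Lamb2 16.7 ± 3.60 FPKM in mutants and 9.58 ± 2.33 FPKM in fl/fl, the esterase Ache 7.00 ± 3.36 FPKM in mutants and 2.67 ± 1.79 FPKM in fl/fl, and Rapsn, which clusters the receptor, 15.0 ± 10.02 FPKM in mutants and 4.73 ± 3.20 FPKM in fl/fl. Their limma adjusted p ranged from 0.109 to 0.311.

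Beside Mstn, the genes of its pathway gave 0 calls among 19 tested and 2 at an unadjusted p below 0.05 (limma), 1 in each direction, against 14.1% of all genes, with a median log2 fold change of 0.12. The activin subunit Inhba measured 12.1, 18.4 and 20.5 FPKM in mutants, against 35.8, 22.8 and 39.6 FPKM in fl/fl, lower in every mutant (limma adjusted p = 0.169). The subunit Inhbb measured 1.03, 4.44 and 1.79 FPKM in mutants and was listed at 0, 0.346 and 0 FPKM in fl/fl. Acvr2b, a receptor of myostatin, measured 9.53 ± 4.62 FPKM in mutants and 4.82 ± 3.49 FPKM in fl/fl, and Ltbp3 20.7 ± 2.56 FPKM in mutants and 16.02 ± 4.24 FPKM in fl/fl. Genes of muscle growth and atrophy gave 0 calls among 21 tested and 6 at an unadjusted p below 0.05 (limma), all 6 higher in mutants (7.94% of all genes), with a median of 0.30. The insulin-responsive kinase Akt2 measured 38.0, 42.5 and 35.3 FPKM in mutants, against 21.3, 13.2 and 22.1 FPKM in fl/fl (limma adjusted p = 0.0755). The atrophy ligases Fbxo32 and Trim63 measured 9.14 ± 4.82 and 15.1 ± 9.39 FPKM in mutants and 3.52 ± 0.22 and 5.93 ± 2.77 FPKM in fl/fl, and their relative Trim54 45.0 ± 19.6 FPKM in mutants and 11.5 ± 7.61 FPKM in fl/fl. None of these 4 passed.

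**Figure D4:**
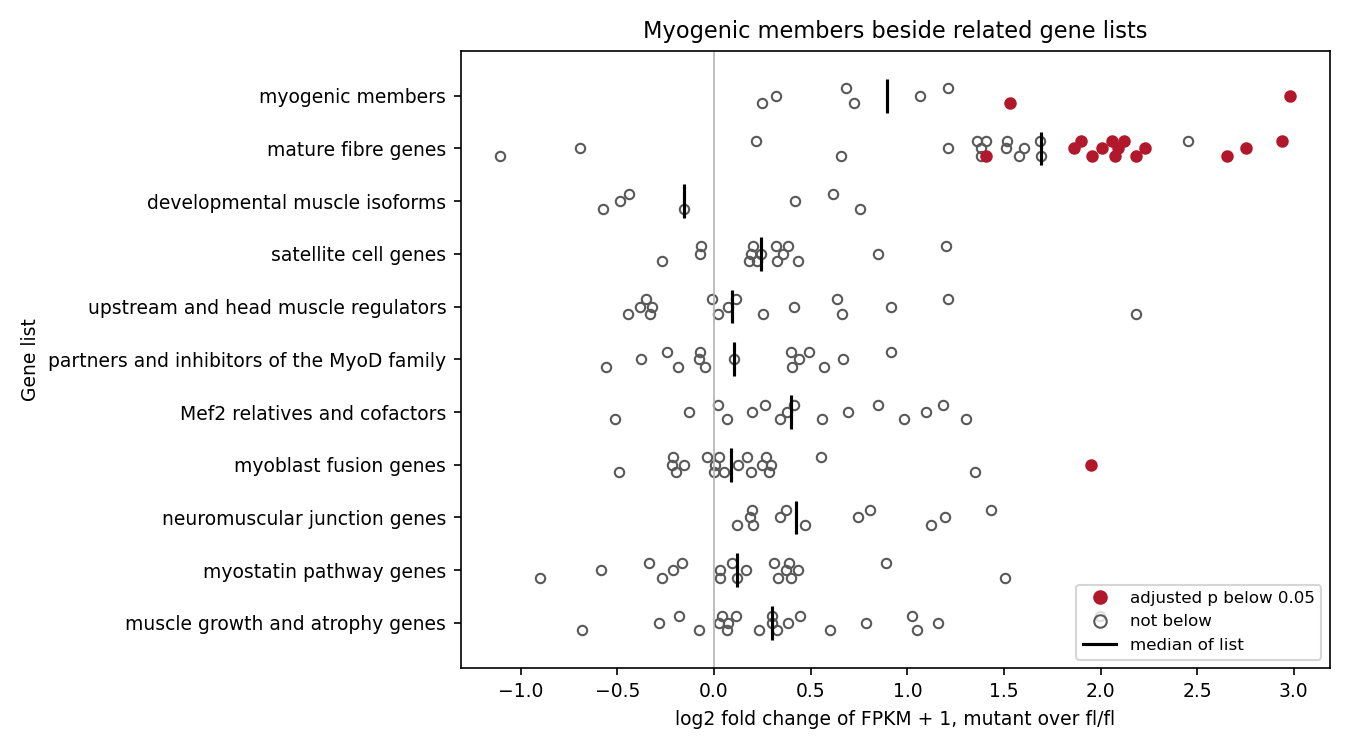
Log2 fold change of FPKM + 1, mutant over fl/fl, for every tested gene of the 9 members and of 10 related lists; filled points have an adjusted p below 0.05 and vertical bars are medians. Calls lie among the members, the mature fibre genes and the fusion genes.

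Markers of other cell types were read beside these results, and their part in them was not tested. Of the endothelial markers 3 of 12 rose (0.775% of all genes were called higher). Among them was the adhesion gene Pecam1 (48.2 ± 1.92 FPKM in mutants and 14.1 ± 6.83 FPKM in fl/fl). Of the chondrocyte markers 4 of 10 fell (0.465% of all genes were called lower). Among these was the link protein Hapln1 (15.5 ± 2.46 FPKM in mutants and 65.3 ± 3.16 FPKM in fl/fl). The pericyte and smooth muscle markers summed to 187 to 213 FPKM in mutants and 226 to 258 FPKM in fl/fl. Of 9 tested, 1 was called lower, Acta2, at 51.2 to 63.1 FPKM in mutants and 120 to 128 FPKM in fl/fl. The list did not share that direction, since 6 of the 9 had a positive log2 fold change. At an unadjusted p below 0.05 (limma), 3 were higher and 2 lower. Adipocyte markers summed to 313 to 692 FPKM in mutants and 80.9 to 322 FPKM in fl/fl, most of it Fabp4 (293 to 669 FPKM in mutants and 61.5 to 291 FPKM in fl/fl), and 4 of the 6 had a positive log2 fold change. Tendon markers summed to 510 to 1209 FPKM in mutants and 404 to 643 FPKM in fl/fl. Schwann cell markers summed to 160 to 308 FPKM in mutants and 184 to 245 FPKM in fl/fl, and macrophage markers to 28.8 to 93.3 FPKM in mutants and 41.6 to 76.4 FPKM in fl/fl. The last 4 lists gave 0 calls by limma, with 1, 1, 0 and 0 genes at an unadjusted p below 0.05, and no marker of any list was at 0 in all 6 libraries.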

How the data were processed

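RNA from 6 libraries (3 mutant, 3 fl/fl) was amplified with the SMART-Seq HT Kit and made into libraries with a Nextera kit, per the labels' protocols. The authors deposited 1 table of FPKM per library; the headers name no unit, and FPKM was inferred from the values and from Cufflinks 2.2.1 in the submitters' processing notes, which also name TopHat2 2.0.13, Bowtie2 2.2.3, SAMtools 0.1.19 and mm10. The test was limma 3.58.1 in R 4.3.3 (trend, robust moderation, group as the only term) on log2(FPKM + 1), for genes reaching 1 FPKM in 3 or more libraries, with Benjamini-Hochberg adjustment across them. The procedure was tested on simulated data. Relative depths came from the most frequent ratio of low values between libraries (0.9934 to 1.3311 of fl/fl 1), and fragments were searched up to 150 in the library with the most.

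The members, the gene lists and the tests were chosen with earlier results of these data known. Named genes were the 9 members, the up to 4 genes of each list with the smallest p, Mef2b, Mef2c and Pax3, and the 3 closest profiles for each member of at least 5 FPKM in either group, of which not all are printed; 2 genes of the upstream and head muscle list are not reported here. Ihh, Xist and Eif2s3y are given as checks of the labels and of sex; other genes outside this rule are marked in the text, and markers are named as examples of their list. Alternatives were a pseudocount of 0.1, other filters, quantile and median scaling, array weights, ordinary moderation, a replicate block, the Xist level or fibre mean as a covariate, and left-out libraries. With libraries left out, the genes tested were those of all 6 libraries; where 1 library remains in a group, it is assumed to vary as the others do.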

Additional observations from a re-analysis of the deposited data

How the results depend on the processing

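The members called numbered 2 (Tmem182 and Myf6), and 1 without a filter on low values, 0 with the Xist level or the mean of the fibre genes as a covariate, 0 with fl/fl 1 and 2 left out, and 0 to 2 when single libraries were left out. Over all genes, 232 were called, and 133 without a filter, 440 with a filter at 5 FPKM, 411 after quantile normalization, 2 with the Xist covariate, 3 with the fibre covariate, 5 with fl/fl 1 and 2 left out and 13 to 414 without single libraries; the causes were not tested. The replicate number as a block left 2 genes and 0 members called, with adjusted p of 0.057 for Tmem182 and 0.0936 for Myf6 (limma). The deviations of same-numbered libraries correlated at 0.006, -0.016 and -0.009 across genes, and all pairs lay between -0.016 and 0.018. No pairing by replicate number was seen, but such small correlations cannot exclude one with 3 libraries per group. Whether the block is needed was thus not decided. Of 135 fold changes of members under other settings, 113 kept their direction and side of the threshold, 15 lost the call and 7 changed sign, none of them called. These were Myog at -0.24 with the Xist covariate, -0.50 with the fibre covariate and -0.34 with fl/fl 1 and 2 left out, Mef2a at -0.053 with the Xist covariate, -0.056 with fl/fl 1 and 2 left out and -0.017 to 0.51 without single libraries, and Mstn at -0.052 to 0.51 without single libraries. Pax7 was tested only without a filter (log2 fold change -0.05, limma adjusted p = 0.98). Pax7 had the fewest recovered fragments of the 9 members, 13 in mutants and 16 in fl/fl as the smallest numbers that fit.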
